A study of Mus musculus with 5 samples.

Results

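Replicating hepatocytes are liver parenchymal cells whose RNA carries the genes of DNA replication with few or none of the transcripts of mitosis. They were taken from 1 droplet library of mouse liver cells made 24 h after partial hepatectomy, the operation that removes most of the liver and makes the remaining cells divide. A barcode counted as a hepatocyte when it held at least 5000 unique molecular identifiers (UMIs), when 10% to 30% of its UMIs were mitochondrial, and when Alb, Apoa1 and Ttr, which encode plasma proteins made in hepatocytes, made up at least 1% of its UMIs. It counted as replicating when Mcm2, Mcm3, Mcm4, Mcm5, Mcm6, Mcm7, Pcna, Gins2, Hells and Uhrf1 summed to at least 3 per 10000 UMIs with at least 3 of them detected, and when Mki67, Top2a, Cdk1, Ube2c, Birc5, Ccnb1 and Cenpf summed to less than 1 per 10000. By this rule 291 of the 1170 hepatocytes at 24 h were replicating, among 5691 hepatocytes in the series. The comparison group was the 271 hepatocytes of the same library with less than 1 per 10000 of each gene set, called low hepatocytes here. A further 267 cells were intermediate, 289 carried both sets above their thresholds, and 52 carried the mitosis set without reaching the replication threshold.

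The series holds 5 libraries of C57BL/6J liver, 1 per group, made with 10x v3 reagents. They are postnatal day 14 (P14), an adult control, and adults at 24, 48 and 96 h after partial hepatectomy, operated at 8 weeks of age. Cells came from perfused livers and passed through dead cell removal, so shares of cells describe what survived isolation. The labels give neither sex nor the number of animals. The protocol text lists the adult control among the operated animals, whereas its title and source call it a control, and it was treated as one. A lane code in the sample descriptions differs for the adult control alone, so that batch and the control cannot be told apart. With 1 library per group, no difference within the 24 h library or between time points has a replicate check, and the intervals given are 95% intervals that cover counting error only.

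A quiescent hepatocyte that re-enters the cell cycle first makes D-type cyclins, which lead to phosphorylation of the retinoblastoma protein and release E2F transcription factors. E2F factors then switch on cyclin E, the licensing factors that load the MCM helicase on origins, the enzymes that make deoxynucleotides, and the polymerases and histone chaperones of the fork. Mcm2 to Mcm7 are the 6 subunits of that helicase, Gins2 is part of its activator, Pcna is the sliding clamp that holds polymerases on DNA, and Uhrf1 and Hells serve the copying of DNA methylation onto the new strand.

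The promoters of several of these genes hold the letters bound by E2F factors. They are printed because 6 of the replication genes that chose the cells hold this short word. The letters searched were TTTCCCGC, TTTGGCGC, TTTCGCGC and TTTGCCGC on both strands, in RefSeq promoters of build GRCm38.p6 that run from 250 bases before to 50 bases after each start site. Of the 10 replication genes of the rule, 8 had an entry, and 6 of those held a match, namely Mcm3, Mcm5, Mcm6, Mcm7, Hells and Uhrf1, whereas Mcm2 and Pcna had an entry without a match. A match stood in at least 1 promoter of 704 of the 27025 genes with an entry (2.61%), and in 2.26% of all 32851 promoters. Of the 7 mitosis genes of the rule, 1, Cdk1, held one. The stretches printed are the 200 bases before the start site, 5′ to 3′, with matches in capitals, for 4 genes of the rule (Mcm5, Mcm6, Hells and Uhrf1) and for 2 genes outside it, Cdc6 and Dtl, both among the genes of licensing and repair. Mcm5 lies at chr8:75109309-75109508 on the plus strand, Mcm6 at chr1:128359706-128359905 on the minus strand and Hells at chr19:38930790-38930989 on the plus strand. Uhrf1 lies at chr17:56304113-56304312 on the plus strand, Cdc6 at chr11:98907951-98908150 on the plus strand and Dtl at chr1:191575545-191575744 on the minus strand.
Mcm5: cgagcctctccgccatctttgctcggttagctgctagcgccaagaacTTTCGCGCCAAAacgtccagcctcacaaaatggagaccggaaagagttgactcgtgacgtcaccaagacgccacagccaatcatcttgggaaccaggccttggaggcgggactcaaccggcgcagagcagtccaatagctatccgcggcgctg
Mcm6: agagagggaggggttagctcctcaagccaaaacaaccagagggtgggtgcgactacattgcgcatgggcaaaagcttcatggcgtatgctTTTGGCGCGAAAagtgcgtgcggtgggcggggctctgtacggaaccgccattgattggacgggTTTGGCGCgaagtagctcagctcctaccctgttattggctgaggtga
Hells: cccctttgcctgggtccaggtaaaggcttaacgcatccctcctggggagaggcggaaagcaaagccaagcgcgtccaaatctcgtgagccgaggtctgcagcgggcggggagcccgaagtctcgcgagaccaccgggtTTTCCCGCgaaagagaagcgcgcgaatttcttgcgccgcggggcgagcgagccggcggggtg
Uhrf1: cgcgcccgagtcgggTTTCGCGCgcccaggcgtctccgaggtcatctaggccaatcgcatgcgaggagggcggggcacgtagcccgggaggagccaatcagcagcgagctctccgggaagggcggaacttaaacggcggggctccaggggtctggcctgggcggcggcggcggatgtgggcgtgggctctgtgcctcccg
Cdc6: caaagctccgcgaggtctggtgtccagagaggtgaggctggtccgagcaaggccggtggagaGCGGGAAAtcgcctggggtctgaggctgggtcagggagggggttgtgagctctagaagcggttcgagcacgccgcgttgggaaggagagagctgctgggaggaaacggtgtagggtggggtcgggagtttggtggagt
Dtl: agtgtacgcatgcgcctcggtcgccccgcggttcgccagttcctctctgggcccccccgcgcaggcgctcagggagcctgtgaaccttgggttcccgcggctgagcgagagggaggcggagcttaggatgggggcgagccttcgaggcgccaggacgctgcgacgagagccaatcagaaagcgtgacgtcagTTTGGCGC
In Mcm5 and in the upstream cluster of Mcm6, a match on one strand overlaps a match on the other, so that the capitals run on as 1 block. The match in Hells begins 62 bases before the start site, that in Uhrf1 185 bases before it, and that in Dtl directly before it. A match describes letters only and does not show that a factor was bound.

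The 24 h library held the highest share of replicating hepatocytes of the 5. The share was 24.9% of 1170 hepatocytes (95% interval 22.4% to 27.5%, exact binomial). It was 2.85% of 2106 at P14, 0.216% of 925 in the adult control, 7.79% of 719 at 48 h and 0.519% of 771 at 96 h. Depth differed between libraries, with a median of 19926 UMIs in low hepatocytes at 24 h, against 39905 at P14, 18987 in the control, 32181 at 48 h and 21154 at 96 h. After each cell was thinned to 5000 UMIs before the rule, the share was 13.1% at 24 h, 1.61% at P14, 0.108% in the control, 4.59% at 48 h and 0.778% at 96 h. The 24 h share was then 153 cells, of which 108 were also members without thinning. The order of the 5 libraries was the same with and without thinning, while the number of cells called at 24 h depended on the depth. The cells with both gene sets were also most frequent at 24 h, at 24.7% of hepatocytes. Their share was 16.8% at 48 h, 5.94% at P14, 3.50% at 96 h and 0.216% in the control. Cells that carried the mitosis set without reaching the replication threshold made up 4.44% at 24 h and 34.4% at 48 h.

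**Figure D1:**
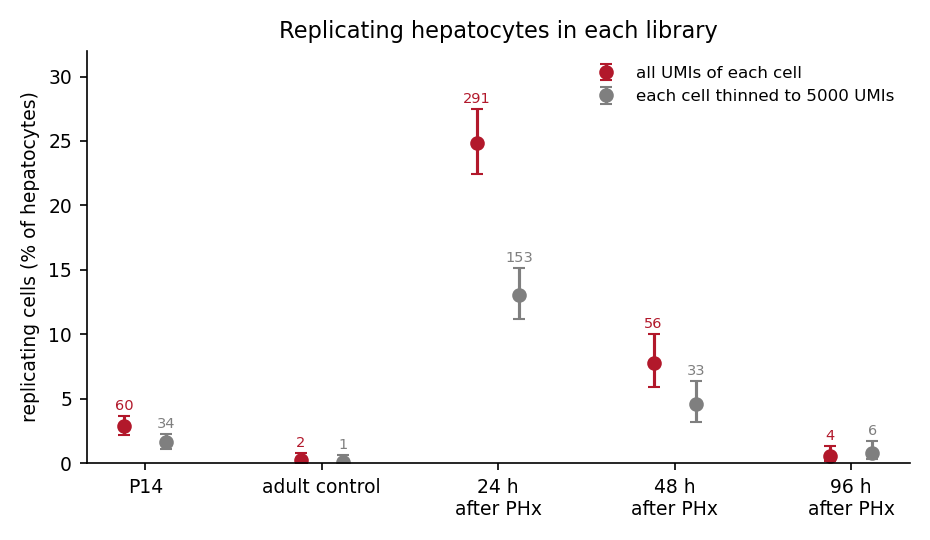
Share of hepatocytes that were replicating in each of the 5 libraries (vertical axis, percent), from all UMIs of each cell and after thinning to 5000 UMIs. Points are shares, bars are exact 95% binomial intervals and the small numbers are the cells counted; the 24 h library is highest by both measures, with 24.9% and 13.1%.

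The threshold cut a continuous range. The lowest member had 3.01 replication UMIs per 10000, the median member 5.27 and the highest 17.3. The highest cell left out had 2.98 among those with 3 detected genes and no mitosis call. There were 65 members between 3 and 4 per 10000 and 78 such cells between 2 and 3. A median of 6 of the 10 genes was detected per member, 30 members had exactly 3 and 4 members had all 10. Of the 291 members, 160 had no UMI of any of the 7 mitosis genes, and Top2a was detected in 17.5% of members and Cdk1 in 16.2%.

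The 10 replication genes chose the cells, so their levels are a description. Mcm6 was the most abundant in the members, at 1.13 per 10000 UMIs against 0.0602 in low hepatocytes, and was detected in 88.3% of members. Pcna stood at 0.941 against 0.133, Mcm5 at 0.702 against 0.0354 and Hells at 0.590 against 0.00708. Gins2 was the lowest of the 10 in members, at 0.130 per 10000. All 10 were higher still in cells that carried both sets, by the smallest ratio for Mcm3 (0.623 to 0.776) and by the largest for Uhrf1 (0.388 to 0.957). Cells with mitosis genes alone, so named because they fall short of the replication threshold, held Pcna at 0.357, Mcm6 at 0.476 and Uhrf1 at 0.0366. Their median replication level was 1.67 per 10000, against 0.371 in low hepatocytes. Mcm2, Mcm5, Mcm6, Pcna, Hells and Uhrf1, which mark replicating cells, were each detected in between 41.6% and 88.3% of members and in between 1.48% and 25.1% of low hepatocytes. The rule chose the cells by the sum of the 10 genes, so this difference is no support for the label.

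**Figure D2:**
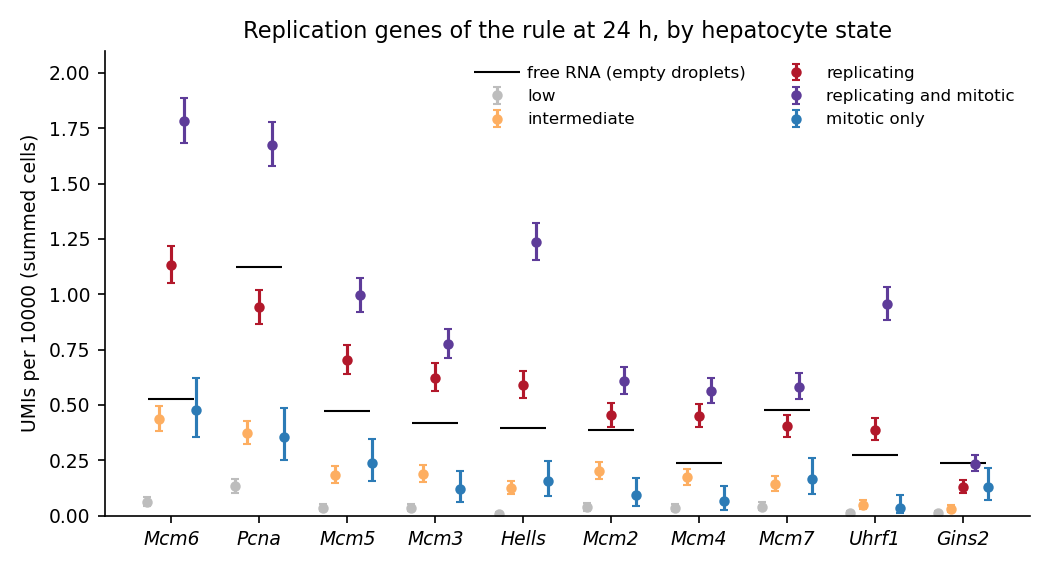
Level of the 10 replication genes of the rule at 24 h (vertical axis, UMIs per 10000 UMIs of the summed cells) in 5 hepatocyte states, with exact 95% Poisson bars, and in free RNA as black dashes. Members lie above low and intermediate hepatocytes for every gene, in cells that the rule chose by the sum of these genes. Cells with both gene sets lie above the members.

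RNA outside cells carried the same genes. Free RNA, read from the barcodes ranked 20001 to 60000, held Pcna at 1.12 per 10000 UMIs and Mcm6 at 0.528. Summed over the 10 replication genes, free RNA lay above the rule's limit of 3 per 10000. Summed over the 7 mitosis genes, it lay above the limit of 1 per 10000. Neutrophil-like barcodes of the library, 165 with a median of 5362 UMIs, served as a cell type apart from hepatocytes. They held the replication set at 1.67 per 10000 UMIs, and 7 of them reached the replication threshold. Of the mitosis genes, these barcodes held Cdk1 below free RNA (0.355 against 0.539) and the others above it, such as Ube2c (1.05 against 0.481). Whether dividing cells lie among these barcodes was not tested. Members were below the free RNA for Pcna (0.941), Mcm7 (0.404 against 0.478) and Gins2 (0.130 against 0.238) and above it for the other 7 genes, and low hepatocytes held Pcna at 0.133. How far free RNA adds to the members was not tested. Members and low hepatocytes had like depth and mitochondrial share, with medians of 18698 and 19926 UMIs and of 24.4% and 23.8%. At 5000 UMIs per cell, members showed a median of 1599 genes and low hepatocytes 1546. Of the members' barcodes, 3 also reached 1000 UMIs in the control library, 0 at P14, 1 at 48 h and 2 at 96 h, and none of these was a hepatocyte there. The mitochondrial limits left cells out, since 34 barcodes met the gene thresholds with under 10% mitochondrial UMIs and 82 with over 30%.

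Genes outside the 17 set genes were compared between the summed members and the summed low hepatocytes, as CPM (UMIs of a gene per 1000000 UMIs of the sum) without the mitochondrial and set genes. The ratio is log2((CPM + 1)/(CPM + 1)), which understates the change of low genes, and a gene entered with at least 20 CPM in either sum. Of 5223 genes, 158 (3.03%) were at least 1.5-fold higher in members and 18 (0.345%) at least 1.5-fold lower. At 2-fold it was 63 (1.21%) and 2 (0.0383%). The median ratio over all genes was 0.04. Of the 158, 105 passed the limit of 20 CPM only through the members' sum and so had to be higher there. With entry by the mean of both sums, 109 of 4971 (2.19%) were higher and 13 (0.262%) lower. The genes printed next are named as the largest ratios, and their size is no support for the label.

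The highest ratio was that of Fignl1, an ATPase of homologous recombination, with 111 UMIs in members and 3 in low hepatocytes (22.9 and 0.689 CPM, log2 ratio 3.83; the ratio of the counts alone has a log2 interval of 3.47 to 7.36). Dtl, the substrate receptor of the ubiquitin ligase that destroys Cdt1 at PCNA, had 107 and 3 UMIs (3.77). Slfn9, a Schlafen family gene, had 216 and 11 UMIs (3.69). Behind them stood Chaf1a, the large subunit of the histone chaperone CAF-1 (3.48), Cdt1, which loads the MCM helicase (3.47), and Mms22l, which acts at stalled forks (3.21). Rrm2, the ribonucleotide reductase subunit that limits deoxynucleotide supply, had 207 and 21 UMIs (2.91). Also among the 15 highest were E2f1 (2.89), the cyclin Ccne2 (2.82), the condensin genes Ncapg2 (2.74) and Smc2 (2.43), Zfp367 (2.41), Mybl1 (2.21) and Rpa2 (2.20). All 15 passed the limit only through the members' sum. Of the 12 of them with a RefSeq promoter, 4 held the E2F letters (Cdt1, Dtl, Ncapg2 and Zfp367), and over the genes called higher it was 24 of 121, or 19.8%. Among genes that entered and were not called it was 171 of 4051, or 4.22%, and among the 15 genes called lower with a promoter it was 0.

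**Figure D3:**
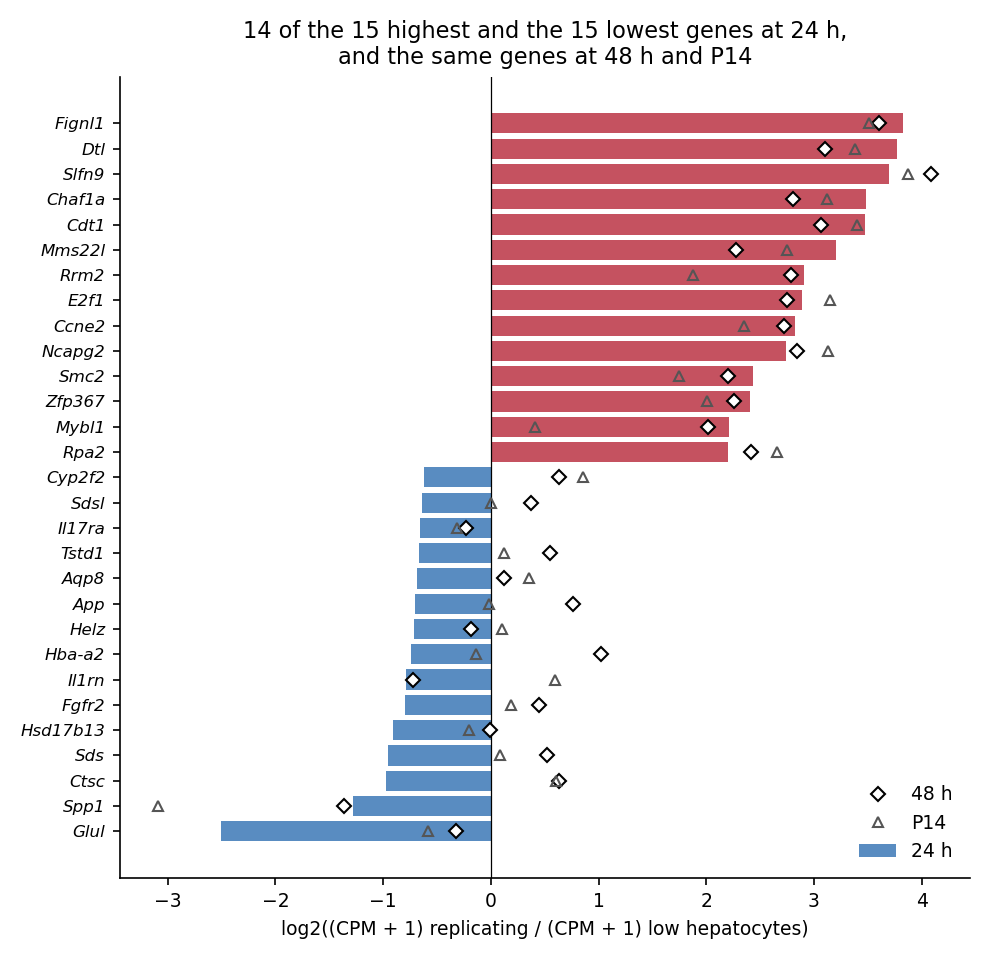
Ratio of replicating over low hepatocytes (horizontal axis, log2 scale of CPM + 1) for 14 of the 15 highest genes and the 15 lowest at 24 h; bars show 24 h, diamonds 48 h and triangles P14. The 14 lie right of 0 in all 3 libraries, whereas 9 of the 15 lowest lie right of 0 at 48 h, among them Cyp2f2, Sds and Ctsc.

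The same contrast was tested in the libraries that did not choose these cells. Replicating and low hepatocytes were picked by the same 17 genes at P14 (60 and 1361 cells), 48 h (56 and 186) and 96 h (4 and 583), summed, and compared by edgeR's quasi-likelihood test with the library as a block. The adult control had 2 replicating cells and was left out by a limit of 50 cells per state. That limit was not applied to the 96 h library, whose 4 replicating cells were kept. Of 9243 genes, 207 (2.24%) were higher in replicating cells and 38 (0.411%) lower at a Benjamini-Hochberg adjusted p under 0.05. These p-values set the difference between states against its variation over 3 libraries of different age and time. That variation was estimated with 2 residual degrees of freedom and with information shared across genes, and each age or time has 1 library. The count was not stable. Without P14 it was 48 higher and 4 lower, without 48 h 93 and 9, and without 96 h 280 and 116. Without the block it was 4 and 0, and DESeq2 gave 92 and 3. Of the 158 genes called higher at 24 h, 85 were higher in this test and 0 lower (110 and 0 at an unadjusted p under 0.05, 40 and 0 by DESeq2). Of the 18 called lower, 16 were tested, 1 (Spp1) was lower and 1 (Hba-a2, an alpha globin of red cells) was higher. Over the 7 alternatives that leave the 24 h library out, between 4 and 91 of the 158 were called higher, and the 2 called lower in any of them were Cyp7a1 and Cyp2c29, without 96 h. The Hba-a2 difference turned to -0.37 without 48 h, and its call was also lost with DESeq2, with thinned cells, without P14 and without the block. Without 96 h, 3 of the genes called lower at 24 h (Cyp2f2, Hal and Hba-a2) were higher and 2 (Glul and Spp1) lower. With thinned cells 1 (Glul) was higher and 2 (Hsd17b13 and Sds) lower. In this setting thinning chose the class of each cell only, and all of its UMIs were summed.

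Of 11 entered genes of G1/S cyclins, kinases and E2F factors, 7 were at least 1.5-fold higher in the members and 0 lower. This stands beside 3.03% higher and 0.345% lower of all genes, and 6 of the 11 entered through the members alone. Of 8 entered immediate early genes, 0 were past 1.5-fold, with a median of -0.03. Ccnd1, the D-type cyclin of hepatocytes, stood at 198 CPM in low hepatocytes, 324 in intermediate cells, 475 in members, 468 in cells with both sets and 245 in cells with mitosis genes alone. In low hepatocytes of the other libraries it was 24.7 CPM in the adult control, 96.3 at P14, 150 at 48 h and 104 at 96 h, all below the 198 of the 24 h library. It was detected in 98.6% of members and 78.6% of low hepatocytes. In the other libraries Ccnd1 was higher in replicating cells by 0.91 on the log2 scale (edgeR adjusted p = 1.87e-08). Over its 8 alternatives the adjusted p ran from 5.14e-13 to 0.774, and the call was lost without P14 (adjusted p = 0.0598) and without the block (adjusted p = 0.774). E2f1, which drives the genes of S phase, was at 4.36 CPM in low and 38.7 in replicating cells at 24 h. It was at 1.17 and 18.2 CPM at P14 and at 4.79 and 37.9 at 48 h. Its difference in the other libraries was 3.64 (edgeR adjusted p = 6.81e-28, from 1.74e-30 to 0.163 over its alternatives, with the call lost without the block). Ccne1 and Ccne2, the E-type cyclins that activate Cdk2, had log2 ratios of 1.70 and 2.82 at 24 h, and Cdk2 itself 1.25. Ccne1 stayed under 20 CPM in both sums and so is not among the genes called. The G1/S list holds 28 genes and its entered genes had a median of 0.85. In the other libraries edgeR called 12 of 21 tested higher, beside 2.24% of all genes tested. The count was 5 by DESeq2, 3 without P14, 6 without 48 h and 0 without the block.

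E2f7 and E2f8 are repressive members of the E2F family. E2f7 had 1 UMI in the members and 0 in low hepatocytes, both under the floor of 3 counts, and 8.82 CPM in cells with both sets. E2f8 was at 13 CPM in members and 62.8 in cells with both sets, and the activator E2f1 at 38.7 and 71.1. Myc, an immediate response gene of growth, was at 11.6 CPM in members and 11.7 in low hepatocytes. The cyclin-dependent kinase inhibitor Cdkn1a (p21) was at 104 CPM in members and 75.3 in low hepatocytes, a log2 ratio of 0.45 with a counting interval of 0.26 to 0.66, but of -0.03 among cells of 10% to 20% mitochondrial UMIs. It was at 164 CPM in cells with both sets and at 1.60 in low hepatocytes of the adult control. Of its list of inhibitors and p53 targets, 10 entered and 1, Ccng1, a p53 target (0.71), was past 1.5-fold. This stands beside 3.03% higher and 0.345% lower of all genes, and the list median was 0.31. In the other libraries 0 of 16 passed edgeR's test (2 higher and 2 lower at an unadjusted p under 0.05, and 0 by DESeq2). Of all genes tested there, 2.24% were higher and 0.411% lower. With cells thinned before the rule, Cdkn1a was higher by 0.73 (edgeR adjusted p = 2.68e-05, the lowest of its 8 alternatives, which reach 1.00) and Cdkn2c was called too.

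Of the origin licensing genes, Cdt1 had 172 UMIs in members and 10 in low hepatocytes, 35.6 and 2.30 CPM. It was at 33.4 and 2.27 CPM at P14 and at 47.6 and 4.79 at 48 h, and it was detected in 37.5% of members. Its promoter letters lie after the start site and are not printed. Cdc6, the partner of Cdt1 in loading the helicase, had 61 UMIs and 1 UMI. It stayed under 20 CPM in both sums and so is not among the genes called, but its edgeR difference in the other libraries was 5.77 (edgeR adjusted p = 7.17e-14, from 3.78e-23 to 0.0707 over its alternatives, with the call lost without the block). Gmnn, the inhibitor of Cdt1, had a ratio of 2.07, and Orc6, an origin recognition subunit, 1.86. Mcm10 and Orc4 were nearer to 0, at 0.55 and 0.23. Of the 26 genes of the licensing list, 8 entered, 6 were higher and 0 lower, beside 3.03% higher and 0.345% lower of all genes. Of the 8, 7 entered through the members alone.

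Polymerase and fork genes showed 8 of 10 entered genes higher and 0 lower, with a median of 0.87, beside 3.03% higher of all genes, and 5 of the 10 entered through the members alone, which had to be higher. Of 26 tested, 18 were higher by edgeR in the other libraries, beside 2.24% of all genes tested. The count was 14 by DESeq2, 6 without P14, 13 without 48 h and 1 without the block. Rpa2 and Rpa1, which coat single-stranded DNA, had ratios of 2.20 and 1.32, and Fen1, the nuclease that trims Okazaki fragments, 1.98. Pole4 (0.33) and Rnaseh2c (0.33) were the lowest of the list. Among 19 entered genes of nucleotide synthesis, 8 were higher and 0 lower, and 7 of the 19 entered through the members alone, against the same 3.03%. Rrm1, the large subunit of ribonucleotide reductase, had a ratio of 2.17, with 86.0 against 18.4 CPM. Dck, which salvages deoxycytidine, had 1.71, and Dut, which keeps uracil out of DNA, 1.16. Tyms, which makes thymidylate, was under 20 CPM in both sums (18.4 and 7.35) and had a ratio of 1.22. The purine enzyme Atic (0.01) and the folate enzyme Mthfd1 (-0.02) were at the low end.

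Chromatin genes of replication had the most entered genes of the 4 replication lists. Of 23 entered genes, 14 were higher and 0 lower, with a median of 0.73, beside 3.03% higher of all genes, and 8 of the 23 entered through the members alone. Dnmt1, the maintenance DNA methyltransferase that Uhrf1 recruits, stood at 54.6 CPM in members against 17 in low hepatocytes (log2 ratio 1.63), and was detected in 55.0% of members. Outside the 24 h library its difference was 2.29 (edgeR adjusted p = 2.24e-22, from 1.82e-21 to 0.0956 over its alternatives, with the call lost without the block). Hat1, which acetylates new histone H4, had 1.86 and Hmgb2 1.75. Slbp, which binds the stem-loop of replication histone mRNA, was at 54.4 against 20.7 CPM, 1.35. Polycomb genes Ezh2 and Suz12 stood at 0.99 and 0.73, and Eed, of the same complex, at 0.05. Replication histone mRNA lacks a poly(A) tail, and only 2 genes of the histone list entered, both lower and neither past 1.5-fold, namely Hist1h1c (-0.42) and Hist1h2bc (-0.30). Outside the 24 h library 6 histone genes were tested, and 1, Hist1h2ap, was higher, beside 2.24% higher and 0.411% lower of all genes tested. Hist1h2ap was higher by 2.59 in edgeR's test, a call lost without P14 and without the block. It had 18 UMIs in members and 4 in low hepatocytes at 24 h. Hist1h1c and Hist1h2bc fell, by 1.57 (edgeR adjusted p = 2.97e-18) and 1.12 (adjusted p = 3.01e-10). Both calls were lost without the block (adjusted p = 1.00), and that of Hist1h2bc also without P14 (-0.87, adjusted p = 0.299); the lowest adjusted p over the alternatives were 6.27e-20 and 1.11e-20. At 24 h Hist1h1c had 409 UMIs in members and 495 in low hepatocytes.

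The 4 lists of replication genes outside the rule hold 112 genes, of which 60 entered. Of these, 36 were higher and 0 lower, beside 3.03% and 0.345% of all genes. The median was 0.66, beside 0.04 over all genes. Of the 60, 27 entered through the members alone, so the count is not a count over all members of the lists, and with entry by the mean the median was 0.64 over 50 genes. Of the 60, 59 had a ratio above 0, and without regard to the limit it was 110 of the 112 detected genes. The share above 0 over all detected genes is not given. In the other libraries edgeR called 53 of 96 tested higher and 0 lower, beside 2.24% and 0.411% of all genes tested. It was 67 and 0 at an unadjusted p under 0.05, and 40 and 0 by DESeq2. The count higher was 24 without P14, 37 without 48 h, 60 without 96 h and 3 without the block, with 0 lower in each. The median was 0.56 at 48 h and 0.80 at P14. Among 27 checkpoint and repair genes, 7 entered, 4 of them through the members alone, and 4 were higher, against the same 3.03% of all genes. Dtl led this list and Usp1 (0.22) was lowest. Topbp1, which activates the ATR kinase, had 2.17 and is counted there with Ung (1.27). Of the cohesin genes 9 entered and Smc3 alone was past 1.5-fold (0.63), against the same 3.03% of all genes.

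Of 38 listed mitosis genes outside the rule, 7 entered, 5 of them through the members alone, which had to be higher. Of the 7, 6 were higher, beside 3.03% of all genes. They were led by the condensin subunit Smc2 and by Stmn1, which destabilises microtubules (46.5 against 11.0 CPM, 1.98). Stmn1 went on to 261 CPM in cells with both sets and 401 in cells with mitosis genes alone. In the other libraries 5 of 13 tested were higher and 2 lower, beside 2.24% and 0.411% of all genes tested. The 2 were Ccnb2 and another mitotic gene, Cdca3, lower by 2.33 (edgeR adjusted p = 0.00520) and 1.73 (adjusted p = 0.00560). DESeq2 called 4 higher and 0 lower. Over the alternatives the adjusted p ran from 0.00118 to 0.660 for Ccnb2 (7 of the 8 held a value) and from 0.000878 to 1.00 for Cdca3. Neither gene was called with DESeq2, with thinned cells, with the 24 h library added, without 48 h or without the block. Ccnb2 was also not called without P14. The rule removes cells with mitosis genes from the replicating group, which bears on these lists. Tuba1b and Tubb5, which encode tubulin, had ratios of 1.37 and 0.92. They were the 2 higher genes among 14 entered cytoskeleton genes, against the same 3.03% of all genes.

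**Figure D4:**
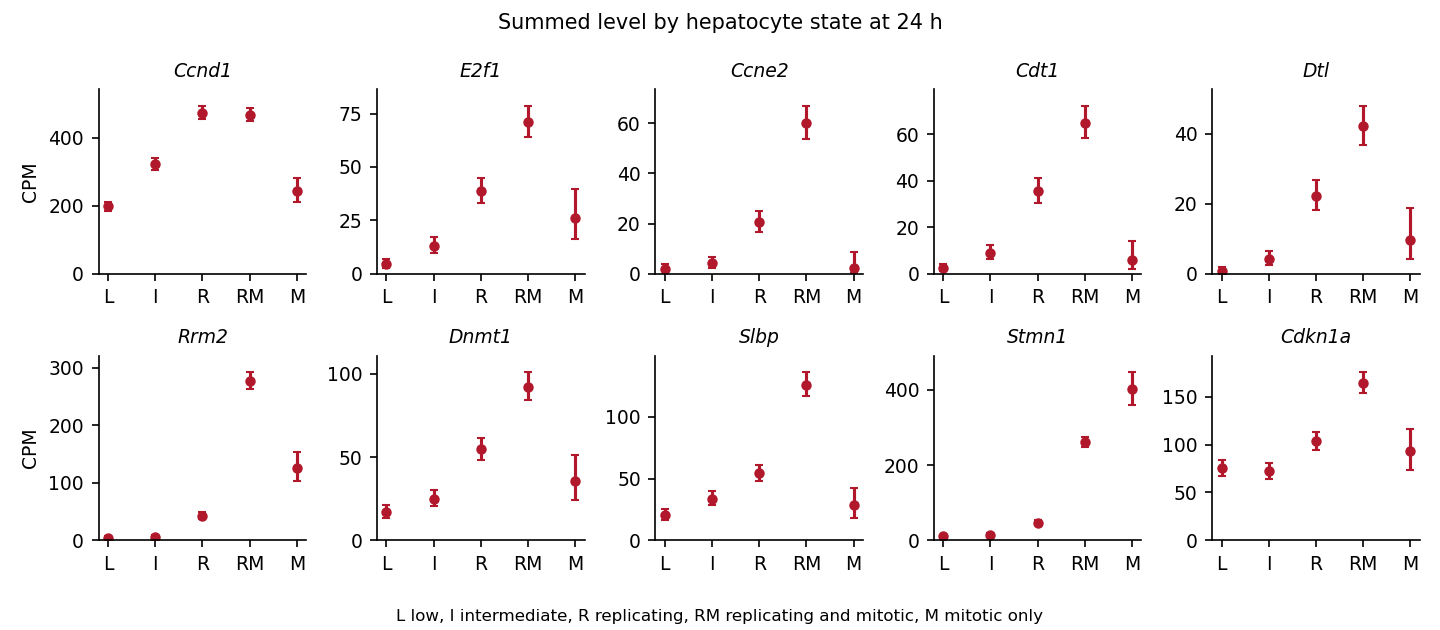
Summed level (vertical axes, CPM, each from 0) of 10 genes across the 5 hepatocyte states at 24 h, with exact 95% Poisson bars. Ccnd1 reaches 475 CPM in replicating cells and 468 in cells with both sets, whereas Rrm2 is at 42.8 and then 278 CPM and Stmn1 is highest, at 401 CPM, in cells with mitosis genes alone.

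Among the members themselves, 97 cells each with the lowest, the middle and the highest replication level were summed. The lowest group ran from 3.01 to 4.45 replication UMIs per 10000 and the highest from 6.50 to 17.3, with median depths of 18946, 18375 and 17957 UMIs. Cdc6 was at 1.78, 10.4 and 27.0 CPM, Rrm2 at 13, 29.4 and 90.1, Slfn9 at 11.3, 27.6 and 100, and Ccne2 at 12.4, 12.3 and 38.8. Each was highest in the cells with the most helicase and clamp RNA. Ccnd1 was at 437, 434 and 560 CPM and Cdkn1b, the inhibitor p27, at 20.2, 19 and 21.7, so that these varied less. Cyp2e1 was at 785, 779 and 668 CPM, and Cyp2f2 at 458, 496 and 462. The groups were cut by the genes that chose the members, so these values carry no test.

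Over 6 metabolic lists, 118 genes entered, 4 were higher and 3 lower, beside 3.03% higher and 0.345% lower of all genes, with a median of -0.00. Of 28 entered urea cycle and amino acid genes, 6 had a ratio above 0 (median -0.09). It was 18 of 22 entered genes of bile acid and drug metabolism (median 0.13). The median over all genes that entered was 0.04, so ratios above 0 were the more frequent. With TMM factors the metabolic median was -0.059, so signs this near to 0 depend on the scaling. Hnf4a, the transcription factor that maintains hepatocyte identity, was at 336 CPM in members and 351 in low hepatocytes, and Cps1, which starts the urea cycle, at 5396 and 5718. Of 18 entered hepatocyte transcription factors, 0 were past 1.5-fold either way, with a median of -0.00. In the other libraries edgeR called 0 of 22 higher and 2, Foxa3 and Ppara, lower, beside 2.24% and 0.411% of all genes tested. Both calls were lost by DESeq2, without P14, without 48 h and without the block. The 3 lower genes were Hal (-0.61), Sds (-0.95) and Sdsl (-0.64), which break down histidine and serine. The 4 higher genes were Cyp7a1, the rate-limiting enzyme of bile acid synthesis (47.1 against 22.3 CPM, 1.05), and the drug-metabolising Cyp2c54 (0.84), Cyp2c29 (0.83) and Cyp2c50 (0.79). The 3 Cyp2c genes are close paralogs, and reads shared between them could be split. Gluconeogenesis (14 entered), fatty acid oxidation (20), fatty acid synthesis (11) and cholesterol synthesis (23) each had 0 genes past 1.5-fold either way. By edgeR, 1 of 125 metabolic genes was higher and 2 lower outside the 24 h library. Of all genes tested, 2.24% were higher and 0.411% lower. The metabolic count was 2 and 15 at an unadjusted p under 0.05, 0 and 0 by DESeq2, and 3 and 10 without 96 h. Over all genes it was 533 and 441 of 9243 at an unadjusted p under 0.05, and 280 and 116 of 9510 without 96 h. Acute phase genes had 0 of 25 past 1.5-fold and a median of -0.14, and plasma protein genes 0 of 27 and -0.08. Among ribosome biogenesis genes, 20 entered and 1, Nop56 (1.02), was higher, and of 30 proteasome and 52 respiratory chain genes none was past 1.5-fold.

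Genes of position within the lobule were compared next. Hepatocytes near the central vein use Cyp2e1, Cyp1a2, Oat and Glul, and those near the portal vein use Cyp2f2, Hal, Sds and Ctsc. Of 16 entered periportal genes, 5 were lower and 0 higher, beside 0.345% lower and 3.03% higher of all genes, with a median of -0.30. They were Ctsc (34.9 against 69.3 CPM), Sds (101 against 197), Hsd17b13 (-0.91), Cyp2f2 (472 against 727) and Hal. Of 11 entered pericentral genes, 1, Tbx3 (0.66), was higher and 1, Glul, lower, with a median of 0.40. Cyp2e1 was at 746 against 507 CPM, a log2 ratio of 0.55 with a counting interval of 0.48 to 0.63, and Cyp1a2 had 0.57 and Oat 0.41. In the other libraries edgeR called 0 of 17 periportal and 0 of 18 pericentral genes, beside 2.24% higher and 0.411% lower of all genes tested. In each list 2 were higher and 2 lower at an unadjusted p under 0.05, beside 533 and 441 of all 9243 genes tested, and DESeq2 called 0. Other settings made calls, in opposite directions. Without 96 h, whose replicating sum rests on 4 cells, 3 periportal genes were higher and 6 pericentral genes lower, among them Cyp2f2 (0.63) and Cyp2e1 (-0.70). Of all 9510 genes tested in that setting, 280 were higher and 116 lower. With thinned cells 3 periportal genes, among them Hsd17b13 (-0.62), were lower and 3 pericentral genes, among them Glul (0.80), higher. Of all 9254 genes tested with thinned cells, 281 were higher and 113 lower. The ratio went the other way at 48 h, where the medians were 0.32 for periportal and -0.29 for pericentral genes, and at P14 they were 0.16 and -0.15. Cyp2f2 in low and replicating cells was at 298 and 462 CPM at 48 h and at 30.5 and 55.8 at P14, and Cyp2e1 at 1322 and 715 and at 2500 and 1919.

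Cell by cell, and by a measure chosen after these values had been seen, 57.0% of members (51.1% to 62.8%) held more Cyp2e1 than Cyp2f2 UMIs, against 32.8% of low hepatocytes (27.3% to 38.8%). It was 50.9% of intermediate cells, 63.0% of cells with both sets and 42.3% of cells with mitosis genes alone. The median member held Cyp2e1 at 5.04 per 10000 UMIs and Cyp2f2 at 2.73, and the median low hepatocyte 1.39 and 6.00. At 48 h the share was 53.6% of replicating and 69.9% of low hepatocytes, and it was 32.6% of low hepatocytes in the adult control. Read the other way, replicating cells made up 27.9% of the 595 cells at 24 h with more Cyp2e1 and 21.7% of the 544 with more Cyp2f2, with intervals of 24.3% to 31.7% and 18.3% to 25.4%. Low cells were 15% and 32.4% of the same groups. Both sides of the lobule as read by this pair of genes thus held replicating cells. Free RNA held Cyp2e1 at 545 CPM and Cyp2f2 at 151, and its part in these values was not tested.

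**Figure D5:**
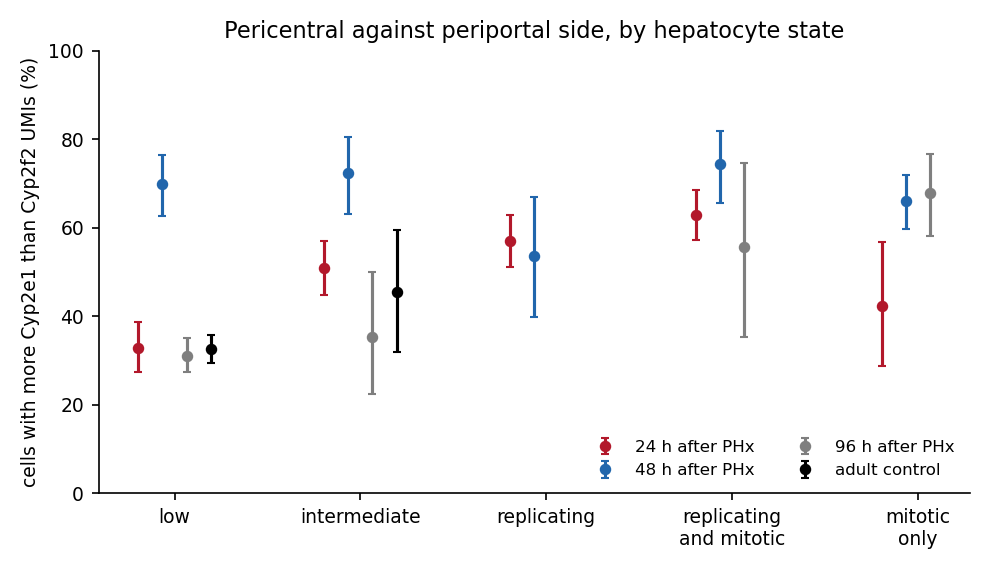
Share of hepatocytes with more Cyp2e1 than Cyp2f2 UMIs (vertical axis, percent) in 5 states, for the 3 libraries after partial hepatectomy and the adult control, with exact 95% binomial bars and states of at least 20 cells. At 24 h the share is 32.8% in low and 57.0% in replicating hepatocytes, and at 48 h 69.9% and 53.6%.

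Glul, the glutamine synthetase of the cells next to the central vein, had the lowest ratio of all, -2.50, with 145 UMIs in members and 760 in low hepatocytes. The sums rest on few cells, because the 5 low hepatocytes with the most Glul held 90.0% of its UMIs there. At 5 or more per 10000 UMIs there were 5 of 271 low hepatocytes, 1 of 291 members and 5 of 289 cells with both sets. Without the cells at that level the ratio was 0.51. More members than low hepatocytes had any Glul UMI, 28.9% against 23.2%. Spp1, which encodes osteopontin and is also a bile duct marker, had 236 against 521 UMIs (-1.28), and the top 5 cells held 72.0% and 63.1% of these. In the other libraries Spp1 fell by 2.60 (edgeR adjusted p = 1.03e-13) in replicating cells. With thinned cells the difference turned to 0.54 (adjusted p = 0.0572), and without the block the call was lost (adjusted p = 0.858, the highest of the alternatives, the lowest being 1.39e-13). At P14, 5 cells held 91.2% of the Spp1 UMIs of low hepatocytes. Epcam, Krt19, Krt7 and Cldn7, the other duct markers beside Sox9, were at 0 in both groups. Without cells holding 3 or more UMIs of another cell type's markers the ratio of Spp1 was -0.07, by construction, since Spp1 is in that list. The erythroid markers were not used in leaving out these cells.

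RNA of other cell types was compared by marker lists, each given for members and then for low hepatocytes. The 6 cholangiocyte markers, Spp1 among them, summed to 0.677 and 1.22 per 10000 UMIs, and the 5 B cell markers to 0.0127 and 0.0248. Of 9 macrophage markers, 7 were at 0 in members and 6 in low hepatocytes, with 4 and 3 UMIs in all. The 9 endothelial markers summed to 0.180 and 0.200 per 10000 UMIs, and the 7 neutrophil markers to 0.787 and 0.779, against 6.71 in free RNA, with 3 or more neutrophil UMIs in 79 and 53 cells. The part of these transcripts in the ratios was not tested. The 6 erythroid markers summed to 3.74 and 4.43 against 17.5 in free RNA, and Hba-a2, the one globin past 1.5-fold (-0.74), had a ratio of 1.05 among cells of 10% to 20% mitochondrial UMIs. Doublets were not removed. Without the 185 barcodes of highest doublet score 290 members and 269 low hepatocytes were left, with the same 158 and 18 as counts.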

How the data were processed

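The authors deposited, for each of 5 libraries, unnormalized UMI counts (whole numbers) for 31053 genes and 6794880 barcodes, empty droplets included. Per the submitters' processing notes, bcl2fastq 2.17.1.14, Cell Ranger and Seurat 3.1 were named with build mm10, in no stated order, and the matrix writer was version 3.0.2 per the file headers. The matrices hold between 80927744 and 136110607 UMIs.

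Cells were classed by the stated thresholds, and UMIs were summed per state and scaled to a total that leaves out 13 mitochondrial and 17 set genes. Ratios used a pseudocount of 1 CPM and a minimum of 20 CPM in either sum. With 1 library per group the 24 h contrast has no test. In the P14, 48 h and 96 h libraries the contrast was tested with edgeR 4.0.16 (quasi-likelihood, TMM, library as a block, 3 pairs, 2 residual degrees of freedom), checked on simulated data, with DESeq2 1.42.0 as an alternative. The number of animals per library is not given in the sources used here. The p-values measure only how the difference between states varied over the 3 libraries, with information shared across genes. The cells and the 31 gene lists and 9 marker lists were chosen with earlier results of these data known. Genes named are the set genes, the 15 highest and 15 lowest ratios, the 2 highest and 2 lowest of each list, and 20 fixed genes, with further list members as examples; 1 of the 15 highest is not reported here. Intervals are exact (Poisson or Clopper-Pearson, 95%) and cover counting error only. Scrublet (scanpy 1.11.5) gave doublet scores; its own threshold marked 12 of 4812 barcodes of at least 2000 UMIs, so no barcode was removed in the results, and as an alternative the 185 highest scores were left out. Symbols matched to 2 gene identifiers were left out of the lists. Promoter sequences are from RefSeq, build GRCm38.p6, matched by symbol for 8 of 10 replication genes of the rule.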

Additional observations from a re-analysis of the deposited data

Results flagged for a closer look

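Ratios of replicating over low hepatocytes were at least 1.5-fold in opposite directions at 24 h and 48 h for 5 named genes, each with 1 library per time, so the difference between the times was not tested. Only named genes were searched, which include the highest and lowest ratios at 24 h, and the share over all genes is not given. Over all genes that entered, the ratios at 24 h and 48 h had a Pearson correlation of 0.538, and of 0.179 among genes not called higher. Cyp2f2, a cytochrome P450 of periportal hepatocytes, had log2 ratios of -0.62 at 24 h and 0.63 at 48 h. Ctsc, a lysosomal protease of the periportal list, had -0.97 and 0.63. Cyp7a1, of bile acid synthesis, had 1.05 and -0.73. App, which encodes the amyloid precursor protein, had -0.70 and 0.76, and Hba-a2, an alpha globin, -0.74 and 1.02. At 48 h the replicating sum holds 56 cells against 291 at 24 h.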

How the results depend on the processing

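Direction held for the median of replication genes outside the rule under the 14 other settings. The 24 h ratios of 167 genes (those chosen by the rule for named genes, set genes aside, and list members given as examples) were recomputed under the 11 settings that can change a single gene's ratio. Of these 1837 values, 1616 stayed within the counting interval and 218 left it, and for genes past 1.5-fold 3 reversed. Hba-a2 was 1.05 with 10% to 20% mitochondrial UMIs and 0.10 without cells holding 3 UMIs of another cell type's markers. That marker setting did not use the erythroid list, so cells were not left out by their globin UMIs. Glul was 0.51 without cells of 5 Glul UMIs per 10000 or more. Among genes not past 1.5-fold, 87 values of 41 genes had the opposite sign, among them Cdkn1a, Myc, Orc4, Eed, Atic and Mthfd1. Leaving out cells by their Glul UMIs and entry by the mean of both sums were chosen after seeing the data.

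The share of replicating hepatocytes, 24.9%, was 13.1% with cells thinned to 5000 UMIs and 12.2% at 5 per 10000 with 5 genes. For ratios and tests with thinned cells, thinning chose the class of each cell only. All UMIs of each cell were summed, so these comparisons were not made at equal depth. The genes past the fold, 158 higher and 18 lower, were 297 and 32 with thinned cells, 448 and 245 with 10% to 20% mitochondrial UMIs (41 and 49 cells), and 252 and 31 at 5 per 10000 with 5 genes. They were 99 and 8 with a pseudocount of 10 CPM, 341 and 39 from 10 CPM, 37 and 8 from 50 CPM and 63 and 2 at 2-fold, and 37 were lower without cells holding other cell types' markers. The replication median, 0.66, was 0.94 with thinned cells, 0.99 at 5 per 10000, 0.60 with TMM factors, 0.54 with a pseudocount of 10, 0.95 from 10 CPM and 0.50 from 50 CPM. The metabolic median, -0.00, was -0.043 with thinned cells, -0.062 with 10% to 20% mitochondrial UMIs, -0.044 at 5 per 10000, -0.055 without cells holding other markers and -0.059 with TMM factors. The cause of these moves was not tested, except that stricter limits leave fewer genes or cells.

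The test in the other libraries, 207 higher and 38 lower, gave 92 and 3 with DESeq2 and 4 and 0 with no replicate block, that is, without the library term. With the 24 h library it gave 327 and 59, and with thinned cells 113 were lower. Leaving out each library in turn gave 48 to 280 higher and 4 to 116 lower. The 96 h replicating sum rests on 4 cells and 75458 UMIs. The labels give no replicate numbers that pair animals, and the block is the library from which both sums come. Genes of few UMIs in low hepatocytes, such as the 3 of Fignl1 and Dtl, have wide counting intervals.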

Other observations

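The 289 cells at 24 h with both gene sets differed in level from the members for genes beyond the mitosis set. Slfn9 was at 151 CPM there and 44.7 in members, and Slbp, which binds histone mRNA, at 126 and 54.4. Hamp, the iron hormone hepcidin, was at 3172 CPM in cells with both sets, 1931 in members and 1446 in low hepatocytes. These are values of 1 library with no test, and the genes were picked after their values had been seen.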
